A study of Mus musculus with 12 samples.

Results

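The transcriptional response of male dorsal root ganglia to sciatic nerve injury was measured in 6 libraries, chosen as those that the labels call Male SNI or Male sham, of 12 libraries in the series. SNI stands for sciatic nerve injury. All 6 came from C57BL/6 mice at postnatal week 8, and RNA was taken from the ganglia of lumbar levels 3 to 5, which hold the cell bodies of sciatic sensory neurons. The injured group had 3 libraries and the sham-operated group had 3. No genetic change or drug is named for either group. The labels used here name neither the kind of lesion, nor the time from operation to dissection, nor the number of animals behind each library. P-values therefore weigh the group difference only against how far libraries of a group differ, and some of that spread may be technical. Reads came from the 3′ ends of polyadenylated transcripts, and levels are given as CPM, counts scaled to a common library size.

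A sensory neuron whose peripheral axon is cut switches on a program of transcription factors, growth-associated proteins and neuropeptides, and lowers many genes of its mature state, such as ion channels and receptors. Atf3, Sprr1a, Npy and Gal are classic members of that program. The ganglion also holds satellite glia, Schwann cells, vessels and macrophages, and macrophages are known to gather around injured cell bodies. In such bulk tissue a lower level can come from fewer cells of a type or from less RNA per cell, and these cannot be told apart.

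All 4 markers of injured neurons stood far above sham in every injured library. Atf3 (chr1:191170296-191183333), a transcription factor of the ATF/CREB family, measured 327, 275 and 288 CPM in Male SNI replicates 1, 2 and 3 and 52.2, 51.1 and 56.5 CPM in Male sham replicates 1, 2 and 3. Sprr1a (chr3:92483954-92485881), a small proline-rich protein that promotes axon outgrowth, measured 709, 583 and 621 CPM after injury and 80.7, 89.7 and 104 CPM in sham. Npy (chr6:49822710-49829507), a neuropeptide almost silent in intact sensory neurons, measured 219, 364 and 218 CPM after injury and 20.1, 18.2 and 15.0 CPM in sham. Gal (chr19:3409915-3414544), which encodes galanin, measured 664, 697 and 637 CPM after injury and 152, 116 and 140 CPM in sham. The 2 groups did not overlap for any of these genes, and the lowest injured library was several times the highest sham library each time. Mean levels rose from 53.3 ± 2.84 to 297 ± 27.3 CPM for Atf3, from 91.6 ± 11.98 to 637 ± 64.9 CPM for Sprr1a, from 17.8 ± 2.53 to 267 ± 83.9 CPM for Npy and from 136 ± 18.3 to 666 ± 30.1 CPM for Gal (SD, n = 3 in each group). The log2 changes were 2.48 ± 0.15 for Atf3, 2.80 ± 0.17 for Sprr1a, 3.91 ± 0.26 for Npy and 2.29 ± 0.16 for Gal (± SE). The adjusted p-values from edgeR's quasi-likelihood test were 0.000456, 0.000456, 0.000585 and 0.000594.

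The promoter of Sprr1a carries a pair of AP-1 motifs, the letters TGACTCA or their reverse complement TGAGTCA, which dimers of JUN with FOS or ATF proteins are known to bind. Since Atf3 and Jun were both higher after injury, the 250 bases before the start site were searched on both strands in the 70 genes higher after injury at an adjusted p below 0.05, using RefSeq promoters of GRCm38.p6. The stretches are printed 5′ to 3′ along the gene's own strand with the motif in capitals, and they are those of the Sprr1a marker, of a neuropeptide gene, of an antioxidant enzyme, of a cell-surface receptor and of the single CRE match. Their positions are chr3:92485971-92486047 for Sprr1a (minus strand), chr10:102490599-102490645 for Nts (minus), chr2:152105402-152105505 for Srxn1 (plus), chr2:155751043-155751089 for Procr (plus) and chr5:31138912-31138959 for Ucn (minus).
Sprr1a: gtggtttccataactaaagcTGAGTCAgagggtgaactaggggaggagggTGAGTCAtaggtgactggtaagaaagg
Nts: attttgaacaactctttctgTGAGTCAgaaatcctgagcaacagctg
Srxn1: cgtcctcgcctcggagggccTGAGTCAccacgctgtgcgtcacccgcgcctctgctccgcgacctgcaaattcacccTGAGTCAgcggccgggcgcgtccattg
Procr: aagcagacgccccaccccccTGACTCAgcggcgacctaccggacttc
Ucn: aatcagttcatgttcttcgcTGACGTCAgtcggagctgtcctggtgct

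The Sprr1a motifs lie 116 and 146 bases before the start, that of Nts lies 207 bases before it, those of Srxn1 lie 45 and 102 bases before it and that of Procr lies 154 bases before it. Of the 70 genes, 56 had a promoter entry, and 7 of these (12.5%) held the AP-1 letters: Sprr1a, Nts, Srxn1, Procr, S100a11, Pde1c and Anxa10. Among all tested genes with an entry, 427 of 10814 (3.95%) held them. The CRE letters TGACGTCA, the site named for CREB, hold neither AP-1 string within them. Factors of the Atf3 and Jun families are known to bind both kinds of motif. The CRE letters were found in 1 of the 56 genes (1.79%), Ucn, against 322 of 10814 tested genes (2.98%). The promoter windows of Atf3, Npy, Gal, Jun, Sox11, Flrt3 and Cdkn1a had no match to either string. A match is a description of these letters and not evidence of binding.

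Among the 6 libraries, Male SNI replicate 2 stood apart. Totals were 12476606 to 14737582 counts per library, 15961 to 16834 genes had at least 1 count, and all 6 fitted the male label, with Xist at or below 0.140 CPM. The level of log2 CPM in Male SNI replicate 2 correlated with the other libraries at 0.921 to 0.941 across genes, which are not independent replicates, while the other pairs lay at 0.965 to 0.985. On the first principal component, which held 49.6% of the variance, it lay at 97.3 while the other 5 libraries lay between -27.8 and -0.414. The second component, with 19.3% of the variance, put Male SNI replicates 1 and 3 at -45.6 and -28.9 and the sham libraries at 16.5 to 30.9. Male SNI replicate 2 sat at 7.06 there, nearer to the sham libraries than to its own group.

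**Figure D1:**
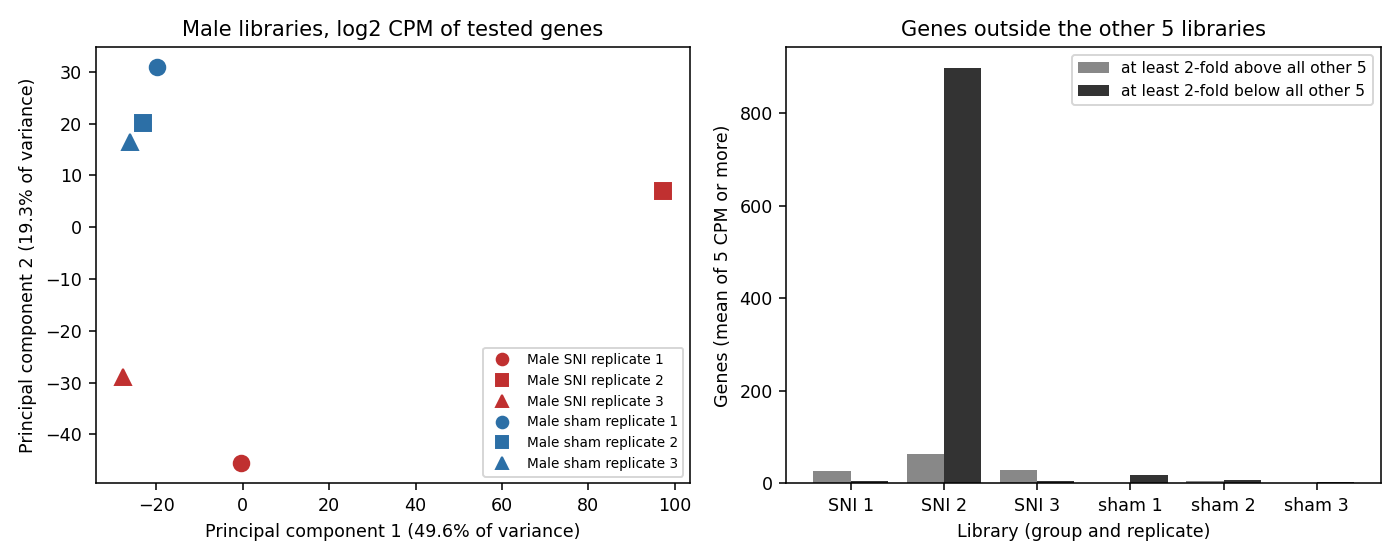
Left, the 6 male libraries on the first 2 principal components of log2 CPM, with 49.6% and 19.3% of the variance; red is Male SNI, blue is Male sham and the marker shape gives the replicate. Right, for each library, the number of genes at least 2-fold above or below all other 5 libraries among 10849 genes whose mean reached 5 CPM; Male SNI replicate 2 has 898 genes below and 63 above.

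Male SNI replicate 2 differed mainly through genes that were low in it. Of 10849 genes with a mean of at least 5 CPM, 898 were at least 2-fold below all other 5 libraries in it, against 2 to 19 in any other library. Txnip, a thioredoxin-binding protein, stood at 0.614 CPM there and at 30.3 to 70.0 CPM elsewhere. Pfn1, which encodes the actin-binding protein profilin, stood at 0.768 CPM against 20.5 to 72.5 CPM, and Bcar1, an adaptor of integrin signalling, at 1.84 against 34.1 to 58.4 CPM. These are genes that most cells use, and their near absence sets this library apart from both groups. The low genes made up 8.95% of genes with a sham mean under 10 CPM, 9.60% of those from 10 to 50 CPM, 6.40% of those from 50 to 200 CPM and 4.93% of those at 200 CPM or more. Their median transcript length was 3025 bases against 3510 for all these genes, and their median GC content was 48.9% against 49.8%.

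A smaller set of 63 genes was at least 2-fold above all other libraries in Male SNI replicate 2, and interferon-stimulated genes led it. Irf7, a transcription factor of the interferon response, stood at 22.1 CPM there and at 1.63 to 4.20 CPM in the other 5. Ifit3, an antiviral effector, stood at 78.1 against 13.5 to 21.2 CPM, Rsad2, which encodes viperin, at 100 against 18.1 to 31.1 CPM, and Cd274, which encodes the ligand PD-L1, at 19.7 against 2.03 to 6.29 CPM. The interferon-inducible GTPases Igtp and Iigp1 stood at 84.6 against 17.2 to 24.8 CPM and at 25.6 against 2.98 to 7.14 CPM. Of the 17 genes of a list of interferon-stimulated genes, all tested, none was called, and their summed level was 895 CPM in this library against 369 to 420 CPM in the others. Their median log2 change was 0.87 with all 6 libraries and 0.05 without Male SNI replicate 2. The part of this library's state in the results was not tested, and the counts of the main gene groups are given with and without it.

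Across 14332 tested genes, 71 passed an adjusted p of 0.05 in edgeR's quasi-likelihood test (0.495% of genes tested), and 70 of them were higher after injury (0.488%). A single gene, Etv1, was lower (0.00698%). The groups did not overlap for any of the 71, and 66 of the 70 were at least 2-fold higher. Over all tested genes, every injured library stood above every sham library for 1318 genes (9.20%) and below for 1283 (8.95%), and 864 genes were higher and 550 lower at an unadjusted p of 0.05. On simulated counts, the test recovered 26.5% of 2-fold changes, 80.0% of 4-fold changes and none of the 1.5-fold changes. The simulation gave all 6 libraries the same spread for a gene, so none deviated as Male SNI replicate 2 did. Recovery in the data may therefore differ. In the data, 4 of the 70 genes called higher changed by less than 2-fold.

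For 7 genes the call did not depend on any single library: Atf3, Sprr1a, Npy, Gal, Flrt3, Lmo7 and Stmn4 passed in all 6 fits that left out 1 library. Without Male sham replicate 1, 2 or 3 the fits called 7, 10 and 8 genes, without Male SNI replicate 1 they called 10, and without Male SNI replicate 3 they called 74, of which 55 were among the 71. Without Male SNI replicate 2, 481 of 14645 genes were called (3.28%), 307 higher (2.10%) and 174 lower (1.19%), and these included all 71. Each list count below stands against the shares of its own fit, with 0.488% higher and 0.00698% lower for all 6 libraries.

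**Figure D2:**
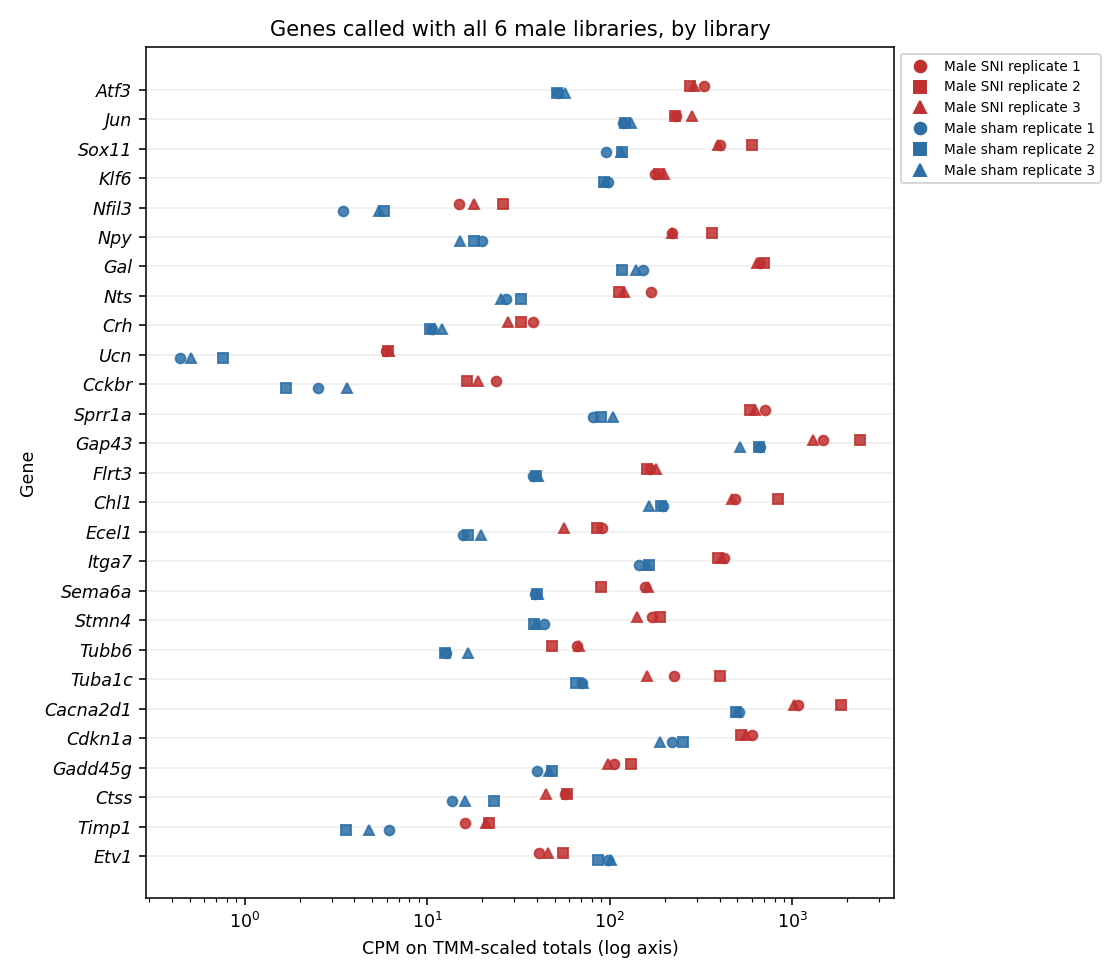
Level of 27 genes called with all 6 libraries, in CPM on TMM-scaled totals (log axis), 1 point per library; red is Male SNI, blue is Male sham and the marker shape gives the replicate. The red points lie to the right of the blue points for every gene but Etv1, where they lie to the left.

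Several transcription factors of the injury program rose. Of 23 tested regeneration-associated factors (24 listed), 5 were called higher, against 0.488% of all tested genes, and none lower, and the median log2 change over the 23 was 0.57 against -0.00045 over all tested genes. Without Male SNI replicate 2, 7 of the 23 were called higher, against 2.10% of all genes tested in that fit, and none lower; Fosl2, an AP-1 subunit, and Smad1, a mediator of BMP signals, were added. Jun, the AP-1 subunit needed for efficient regeneration, measured 230, 229 and 281 CPM after injury and 118, 121 and 131 CPM in sham, a log2 change of 1.002 ± 0.15 (adjusted p = 0.0304). Sox11, which drives growth genes during development, measured 401, 600 and 394 CPM against 95.5, 116 and 115 CPM, a log2 change of 2.10 ± 0.20 (adjusted p = 0.00499). Klf6, a Krüppel-like factor linked to axon growth, measured 176, 185 and 197 CPM against 98.4, 92.7 and 93.7 CPM (0.97 ± 0.13, adjusted p = 0.0207). Nfil3, a bZIP repressor of CREB targets, measured 15.0, 26.1 and 18.1 CPM against 3.48, 5.80 and 5.46 CPM (2.003 ± 0.31, adjusted p = 0.0352). In order of log2 change the factors ran Atf3, Sox11, Nfil3, Jun and Klf6, and the changes of Sox11 and Nfil3, like those of Jun and Klf6, differed by less than their SE. Prdm1, a transcriptional repressor outside the list, stood at 4.95, 4.22 and 4.99 CPM after injury and at 0.888, 0.840 and 0.825 CPM in sham (2.46 ± 0.41, adjusted p = 0.0474).

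Neuropeptide genes stood on both sides of sham. Of 18 tested neuropeptide genes (20 listed), 5 were called higher and none lower with all 6 libraries, against 0.488% of all tested genes called higher. Without Male SNI replicate 2, 8 were called higher and 1 lower, against 2.10% and 1.19% of all genes tested in that fit. The lower gene was Nmb, which encodes neuromedin B, with a log2 change of -0.56 ± 0.10 in that fit. Nts, which encodes neurotensin, measured 168, 112 and 119 CPM after injury and 27.2, 32.7 and 25.5 CPM in sham (2.22 ± 0.21, adjusted p = 0.00381). Crh and Ucn, both ligands of the corticotropin-releasing hormone receptors, rose together. Crh measured 38.2, 32.9 and 27.6 CPM against 10.6, 10.3 and 12.1 CPM (1.58 ± 0.21, adjusted p = 0.0165). Ucn was nearly equal in the injured libraries, with 5.92, 6.14 and 6.16 CPM against 0.444, 0.763 and 0.508 CPM (3.39 ± 0.42, adjusted p = 0.0133).

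The main peptides of intact nociceptors had negative log2 changes with all 6 libraries, and none passed the test. Calca, the main precursor of calcitonin gene-related peptide, measured 1205, 614 and 1079 CPM after injury and 1380, 1245 and 1453 CPM in sham. Its log2 change was -0.49 ± 0.24 (adjusted p = 0.544). The deviating Male SNI replicate 2 was its lowest library, and Male SNI replicate 1 lay just under the lowest sham library. Tac1, the substance P precursor, had a log2 change of -0.29 ± 0.14 and Sst, somatostatin, one of -0.85 ± 0.30, and neither passed. In all, 9 of the 18 peptide genes were above sham in every injured library and 5 were below, against 9.20% and 8.95% of all tested genes. Among 12 tested peptide receptors (20 listed), 1 was called higher with all 6 libraries and 2 without Male SNI replicate 2. The shares of all tested genes called higher in these fits were 0.488% and 2.10%. Cckbr, the gastrin and cholecystokinin B receptor, was called in both. It measured 23.8, 16.4 and 18.9 CPM against 2.52, 1.68 and 3.62 CPM (2.91 ± 0.33, adjusted p = 0.00965). The transcript of the peptide ligand Cck itself was scarce. It measured 1.22, 3.45 and 1.09 CPM after injury and 0, 0.687 and 0.508 CPM in sham, with no overlap.

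Growth, adhesion and effector genes formed the widest group of increases. Of 25 tested members of the regeneration effector list (28 listed), 7 were called higher (0.488% of all tested genes) and none lower, 15 had every injured library above every sham library (9.20% of all tested genes), and the median log2 change was 0.997. Gap43, the growth cone protein, measured 1473, 2344 and 1304 CPM after injury and 668, 656 and 519 CPM in sham (1.47 ± 0.24, adjusted p = 0.0445). Chl1, an adhesion molecule of the L1 family, measured 485, 832 and 467 CPM against 196, 191 and 164 CPM (1.70 ± 0.24, adjusted p = 0.0221). For both genes Male SNI replicate 2 was the highest library by a wide margin, while Male SNI replicates 1 and 3 lay close together. Flrt3, a leucine-rich repeat adhesion protein, varied little within groups, at 166, 159 and 180 CPM against 38.0, 39.7 and 40.4 CPM (2.10 ± 0.14, adjusted p = 0.000585). Ecel1, a membrane endopeptidase induced in damaged neurons, measured 91.2, 84.8 and 56.4 CPM against 15.7, 16.7 and 19.7 CPM (2.15 ± 0.23, adjusted p = 0.00679). Among 13 tested integrins, 1 rose with all 6 libraries and 2 without Male SNI replicate 2. The shares of all tested genes called higher were 0.488% and 2.10%. Itga7, called in both, a laminin receptor subunit, went from 145, 165 and 159 CPM to 420, 391 and 411 CPM (1.38 ± 0.14, adjusted p = 0.00499). Its exons overlap those of Mettl7b, also called, by 9 bases on the opposite strand. Sema6a, a transmembrane semaphorin, was the 1 gene called of 28 tested guidance genes with all 6 libraries (2 higher and 2 lower without Male SNI replicate 2), with 156, 89.1 and 163 CPM against 39.1, 40.1 and 40.3 CPM (1.77 ± 0.23, adjusted p = 0.0159).

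Several cytoskeletal genes rose. Of 13 tubulin genes, 2 were called higher with all 6 libraries, and 5 were called higher and none lower without Male SNI replicate 2, with Tuba1a, Tubb2a and Tubb2b added. Of all tested genes, 0.488% and 2.10% were called higher in these fits. For Tubb2a the library left out, at 522 CPM, lay below every sham library, at 663 to 689 CPM. That library lay within the sham range for Tuba1a and above every sham library for Tubb2b. The summed tubulin level was 17841 to 21593 CPM after injury and 13351 to 14790 CPM in sham, with no overlap. Tubb6, a beta tubulin, measured 65.9, 48.3 and 68.0 CPM after injury and 12.7, 12.5 and 16.7 CPM in sham (2.12 ± 0.22, adjusted p = 0.00648). Tuba1c, an alpha tubulin whose sequence is close to other alpha tubulins, so that reads could be split between them, measured 226, 401 and 159 CPM against 70.1, 65.0 and 71.4 CPM (1.93 ± 0.31, adjusted p = 0.0395). Of 13 stathmins and microtubule regulators, Stmn4 alone was called with all 6 libraries (2 genes without Male SNI replicate 2), at 170, 189 and 141 CPM against 43.6, 38.5 and 39.4 CPM (2.04 ± 0.16, adjusted p = 0.00158). Lmo7, a LIM-domain protein of cell junctions, measured 131, 132 and 106 CPM against 30.7, 28.3 and 31.4 CPM (2.03 ± 0.16, adjusted p = 0.00151). Other called genes of cytoskeleton and motors were Kif22, a kinesin, with a log2 change of 2.38 ± 0.28, and Myo10, a myosin of filopodia, with 1.08. Genes named here beyond those that the naming rule picked were chosen after their values were seen.

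Calcium and cyclic nucleotide signalling genes were among the other increases. Cacna2d1, the calcium channel subunit that gabapentin binds, was the 1 gene called of 17 tested calcium channel genes with all 6 libraries. Of all tested genes, 0.488% were called higher in that fit. Without Male SNI replicate 2, Cacna2d2, a related subunit, was also called, as lower, against 1.19% of all genes tested in that fit. Cacna2d1 measured 1080, 1849 and 1025 CPM after injury and 508, 489 and 495 CPM in sham (1.41 ± 0.23, adjusted p = 0.0474). Both Pde1a and Pde1c, calmodulin-dependent phosphodiesterases, were called, Pde1a with 28.5, 26.3 and 28.7 CPM against 6.96, 8.09 and 8.70 CPM (1.81 ± 0.20) and Pde1c with 214, 208 and 195 CPM against 104, 87.8 and 114 CPM (1.01 ± 0.15). Camk1, a calmodulin-dependent kinase, measured 321, 348 and 315 CPM against 118, 135 and 99.4 CPM (1.48 ± 0.16, adjusted p = 0.00753). Camk1 overlaps Ogg1, also called, by 65 exon bases on the opposite strand, and without stated strand use their reads cannot be told apart. Ppef1, a calcium-binding phosphatase of sensory neurons, changed by 0.90 ± 0.14, and Pkib, an inhibitor of protein kinase A, by 1.14 ± 0.17. These called genes act on calcium or cyclic nucleotides by their known biochemistry, and the grouping was made after their values were seen.

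Growth arrest and antioxidant genes rose in small numbers. Of 14 tested p53 targets and growth arrest genes, 2 were called higher with all 6 libraries and 3, with Gadd45a added, without Male SNI replicate 2. In these fits 0.488% and 2.10% of all tested genes were called higher, which is the background for the antioxidant genes too. Cdkn1a, the cyclin-dependent kinase inhibitor p21, measured 600, 525 and 558 CPM after injury and 218, 253 and 189 CPM in sham (1.35 ± 0.16, adjusted p = 0.00965). Gadd45g measured 106, 130 and 97.7 CPM against 40.0, 48.5 and 46.2 CPM (1.31 ± 0.17, adjusted p = 0.0159). Of 16 antioxidant genes, 1 was called, with and without Male SNI replicate 2: Srxn1, sulfiredoxin, went from 431, 392 and 425 CPM to 868, 690 and 805 CPM (0.92 ± 0.15, adjusted p = 0.0422). Of 17 tested genes of endoplasmic reticulum stress and the amino acid response none was called with all 6 libraries and 1, Slc3a2, was called higher without Male SNI replicate 2. That list had a median log2 change of 0.37, and 7 members, Atf4, Atf5, Chac1, Hspa5, Psat1, Shmt2 and Aars, stood above sham in every injured library, against 9.20% of all tested genes. Plin2, a lipid droplet coat protein, rose from 45.0, 45.9 and 44.9 CPM to 156, 225 and 125 CPM (1.90 ± 0.22, adjusted p = 0.00965). Xdh, xanthine dehydrogenase, was even across libraries, at 13.6, 13.4 and 14.9 CPM against 3.03, 3.05 and 3.17 CPM (2.18 ± 0.25, adjusted p = 0.00914).

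Among the genes with the largest increases that belong to no role above were Wfdc3, Tmem88b, Car3 and Procr. Wfdc3, a whey acidic protein domain gene, measured 16.3, 22.8 and 11.3 CPM after injury and 2.59, 2.44 and 2.35 CPM in sham (2.77 ± 0.32, adjusted p = 0.00965). Tmem88b, a membrane protein gene, measured 29.9, 31.4 and 29.7 CPM against 6.07, 2.82 and 7.62 CPM (2.46 ± 0.34, adjusted p = 0.0213). Car3, a carbonic anhydrase also abundant in muscle and fat, measured 35.9, 24.1 and 33.0 CPM against 3.40, 9.24 and 4.51 CPM (2.44 ± 0.38, adjusted p = 0.0352). Its value in Male SNI replicate 1 was close to that in replicate 3, unlike the muscle markers described below. The adipocyte list, which includes Car3, summed to 41.5, 24.6 and 40.6 CPM after injury and to 4.74, 18.4 and 8.89 CPM in sham. Whether muscle or fat in the samples contributed to the Car3 level was not tested. Procr, the endothelial protein C receptor, measured 18.3, 14.1 and 14.8 CPM against 2.22, 4.05 and 3.94 CPM (2.21 ± 0.31, adjusted p = 0.0215). Smim3, a small membrane protein gene, changed by 2.10 ± 0.19 and passed in 5 of the 6 fits that left out 1 library.

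Most macrophage genes stood above sham in every injured library, and few passed the test. Of 22 macrophage markers, 1 was called with all 6 libraries: Ctss, cathepsin S, measured 56.9, 58.1 and 45.0 CPM after injury and 13.7, 23.4 and 16.1 CPM in sham (1.59 ± 0.24, adjusted p = 0.0326). For 14 of the 22 every injured library stood above every sham library, none stood below, against 9.20% and 8.95% of all tested genes, and the median log2 change was 0.97. The summed level of the 22 was 477 to 571 CPM after injury and 235 to 299 CPM in sham. Without Male SNI replicate 2, 7 of 22 were called higher (2.10% of all genes tested in that fit), among them the complement genes C1qa, C1qb and C1qc. C1qa measured 55.7, 85.4 and 43.0 CPM against 24.1, 25.3 and 14.6 CPM, and the library left out was the highest of the 6. Cx3cr1, the fractalkine receptor, measured 38.3, 44.2 and 19.8 CPM against 13.2, 10.8 and 11.7 CPM, a log2 change of 1.52 ± 0.30 with all libraries (adjusted p = 0.0955) and 1.27 ± 0.25 without Male SNI replicate 2. Csf1, a macrophage growth factor that injured sensory neurons are known to make, measured 44.5, 38.0 and 89.9 CPM against 10.7, 22.2 and 18.0 CPM and was called without Male SNI replicate 2 (1.98). Timp1, an inhibitor of matrix metalloproteinases, was called with all 6, at 16.1, 21.9 and 21.1 CPM against 6.22, 3.59 and 4.83 CPM (2.01 ± 0.28, adjusted p = 0.0215). Of 17 complement genes, which share the C1q genes with the macrophage list, none was called with all 6 and 5 were called higher without Male SNI replicate 2.

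Markers of other cell types gave few calls with all 6 libraries: 1 of 7 tested repair Schwann cell genes (Jun), 1 of 23 fibroblast and matrix genes (Timp1) and 1 of 4 adipocyte markers (Car3), each the same gene without Male SNI replicate 2. Of all tested genes, 0.488% were called higher with all 6 libraries and 2.10% without Male SNI replicate 2. Of 10 neutrophil markers none was called with all 6 libraries, and 6 were called higher without Male SNI replicate 2, against 2.10% of all genes tested in that fit. S100a8, a calgranulin subunit, measured 109, 46.8 and 110 CPM after injury and 23.1, 23.7 and 44.6 CPM in sham, so that Male SNI replicate 2 lay beside the highest sham library. The summed level of the neutrophil list was 174 to 537 CPM after injury and 113 to 225 CPM in sham, so the groups overlapped. None of 13 satellite glia markers, 15 myelinating Schwann cell genes, 12 endothelial markers or 14 pan-neuronal genes was called in either direction, with or without Male SNI replicate 2. Their median log2 changes with all 6 libraries were 0.12, -0.03, 0.22 and 0.06. Only 1 of 11 T and NK cell markers was abundant enough to be tested, and that list summed to 1.30 to 5.53 CPM after injury and 2.66 to 8.47 CPM in sham.

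Skeletal muscle genes were a property of Male SNI replicate 1. The muscle list summed to 1902 CPM in that library and to 19.7 to 93.0 CPM in the other 5. Acta1, skeletal muscle actin, stood at 444 CPM there, at 12.1 and 15.4 CPM in Male SNI replicates 2 and 3 and at 5.18, 14.8 and 8.32 CPM in sham. None of the 11 tested muscle markers was called with all 6 libraries. Without Male SNI replicate 2, 7 were called higher, against 2.10% of all genes tested in that fit. In all, 21 of the 307 genes called higher in that fit had a level in Male SNI replicate 1 at least 4-fold that in replicate 3, and no change after injury is read from them here.

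**Figure D3:**
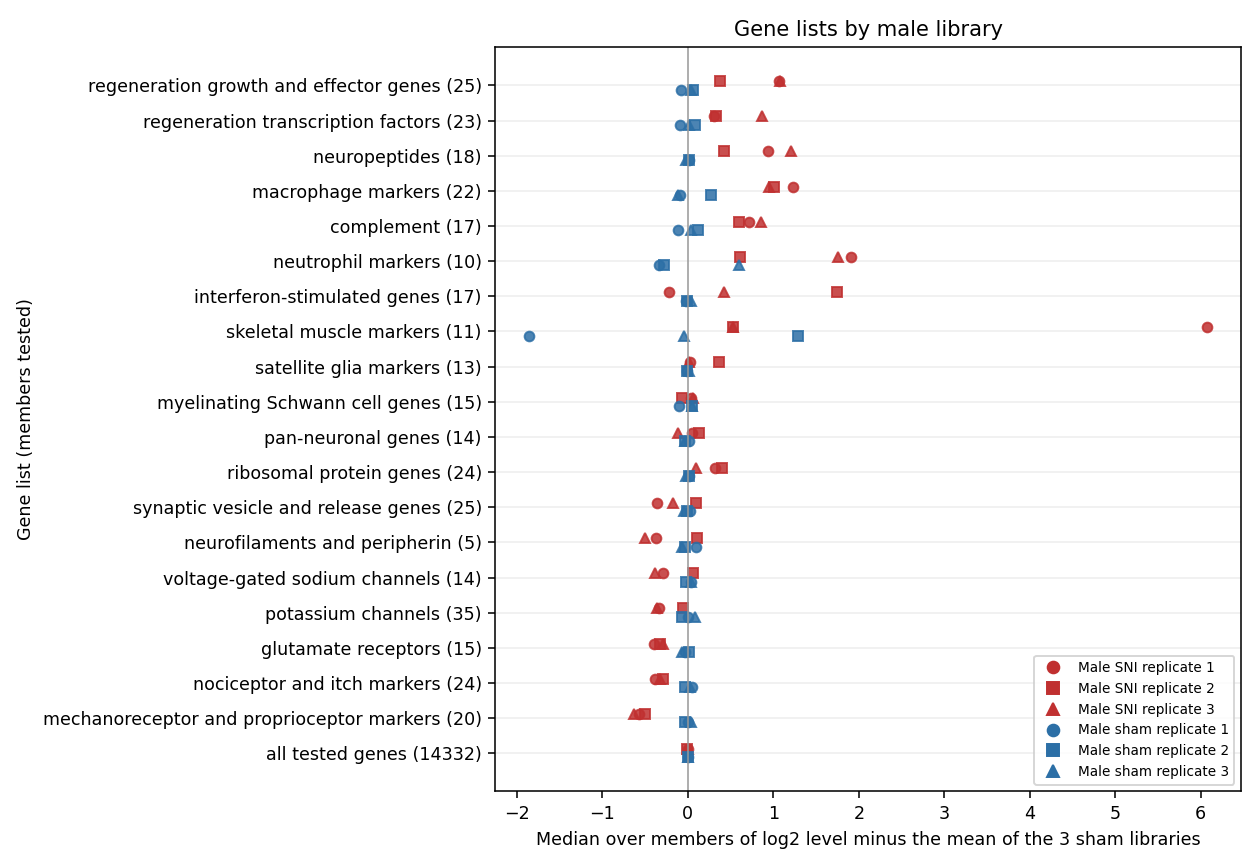
Median over the tested members of 19 gene lists, and of all tested genes, of the log2 level in a library minus the mean log2 level of the 3 Male sham libraries; red is Male SNI, blue is Male sham, the marker shape gives the replicate and the number of members tested is in brackets. Male SNI replicate 2 lies apart from replicates 1 and 3 for interferon-stimulated genes, sodium channels and neurofilaments, and Male SNI replicate 1 alone is high for the muscle list.

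Etv1 was the single gene called lower with all 6 libraries. It encodes an ETS transcription factor that proprioceptive neurons need for their connections, and lies at chr12:38780082-38870483. Levels were 41.1, 55.2 and 46.1 CPM after injury and 97.8, 86.2 and 102 CPM in sham, with no overlap, a log2 change of -1.005 ± 0.17 and an adjusted p of 0.0474. The call sat at the threshold, since the adjusted p was 0.0505 with DESeq2-type size factors and 0.0508 with upper-quartile factors, and leaving out any library but Male SNI replicate 2 ended it. Over the alternatives the adjusted p ran from 0.000271 to 0.363.

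Genes of large-diameter mechanoreceptors and proprioceptors stood below sham more widely than this call shows. Of 20 tested markers (21 listed), 14 were below sham in every injured library and 1, Ret, above, against 8.95% and 9.20% of all tested genes. The median log2 change over the 20 was -0.60 with all 6 libraries and -0.57 without Male SNI replicate 2. Runx3, which sets proprioceptor identity, measured 17.9, 18.3 and 19.6 CPM after injury and 35.1, 24.5 and 25.8 CPM in sham (-0.61 ± 0.21) and passed in neither fit. Ntrk3, the receptor for neurotrophin-3, measured 89.2, 48.6 and 88.8 CPM against 109, 100 and 144 CPM (-0.64 ± 0.25) and passed in neither. Without Male SNI replicate 2, 9 of the 20 were called lower, against 1.19% of all genes tested in that fit. Among them Whrn, a scaffold protein, measured 4.06, 4.30 and 5.74 CPM against 11.1, 10.5 and 12.001 CPM, and Cntnap2, which holds potassium channels beside the node, measured 89.7, 83.2 and 83.4 CPM against 129, 133 and 136 CPM. Nefh, the heavy neurofilament, measured 2763, 3598 and 2333 CPM against 3879, 3635 and 3919 CPM, so the library left out lay just under the lowest sham library.

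The other decreases appeared when Male SNI replicate 2 was left out, so that the injured group rested on 2 libraries. The 174 genes called lower there had no overlap among the 5 libraries, but the test that picked them used those same 5 libraries. Only 30 were at least 2-fold lower. Male SNI replicate 2 itself stood below all sham libraries for 119 of the 174 and above all of them for 29. For the 307 higher genes it stood above all sham libraries for 249. How often this library lay outside all sham libraries over all tested genes was not counted. These counts therefore have no baseline.

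Sodium and potassium channel genes were among these decreases. Of 14 sodium channel genes, 3 were called lower and none higher in the fit without Male SNI replicate 2, where 1.19% of all tested genes were called lower, and none was called with all 6. Scn1a and Scn8a, pore subunits of large-fibre neurons and of nodes of Ranvier, measured 77.4, 105 and 84.9 CPM against 151, 121 and 140 CPM and 156, 185 and 173 CPM against 248, 231 and 250 CPM. Both had every injured library below sham, Male SNI replicate 2 included. Scn10a, the nociceptor channel Nav1.8, did not, at 272, 475 and 298 CPM against 399, 392 and 408 CPM, and the library left out was the highest of all. Of 35 tested potassium channel genes, 8 were called lower (1.19% of all genes tested) and none higher without Male SNI replicate 2, none was called with all 6, and the median log2 change moved from -0.25 to -0.36. Kcna1, a juxtaparanodal channel, measured 550, 606 and 531 CPM against 759, 784 and 773 CPM. Kcns1, a modulatory subunit, measured 16.2, 29.7 and 21.3 CPM against 39.5, 44.0 and 38.0 CPM. In both genes Male SNI replicate 2 was the highest injured library and still below every sham library.

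**Figure D4:**
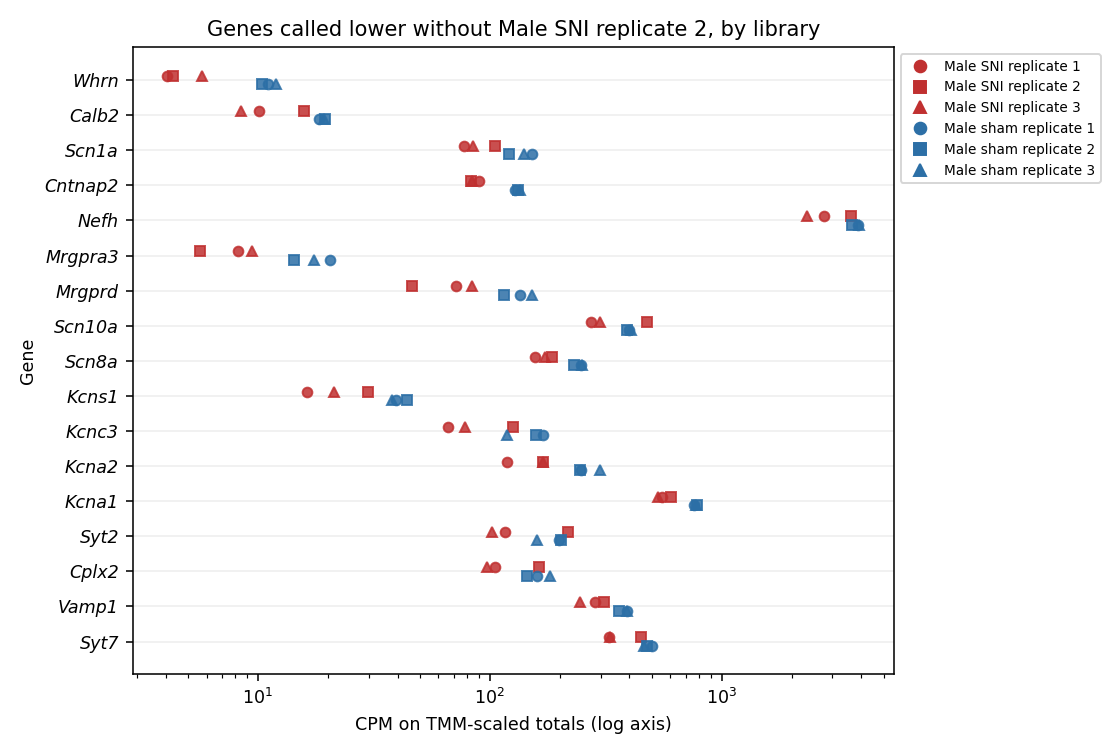
Level of 17 genes called lower without Male SNI replicate 2, in CPM on TMM-scaled totals (log axis), 1 point per library; red is Male SNI, blue is Male sham and the marker shape gives the replicate. The red circle and triangle lie left of all blue points for every gene, while the red square, Male SNI replicate 2, lies right of the blue points for Scn10a and Syt2.

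Nociceptor markers, receptors and release genes added smaller numbers. Of 24 tested nociceptor and itch markers (27 listed), none was called with all 6 libraries and 4 were called lower without Male SNI replicate 2. In that fit 1.19% of all tested genes were called lower and 2.10% higher, which is the background for the other lists of this paragraph too. Mrgprd, a receptor of non-peptidergic nociceptors, measured 71.7, 46.3 and 83.7 CPM after injury and 135, 115 and 152 CPM in sham. Mrgpra3, an itch receptor, measured 8.20, 5.60 and 9.44 CPM against 20.5, 14.3 and 17.5 CPM. For both, the library left out was the lowest of all. Of 25 synaptic vesicle genes, 6 were called lower and 1, Syt4, higher in that fit. Syt2, a fast calcium sensor, measured 116, 217 and 102 CPM against 198, 202 and 159 CPM, with Male SNI replicate 2 above every sham library, whereas Syt4 measured 904, 1077 and 920 CPM against 584, 604 and 557 CPM. Of 15 tested glutamate receptor genes 2 were called lower, and of 18 inhibitory receptor genes 1 was, with none called in either list when all 6 libraries were used. P2rx7, an ATP-gated channel, measured 3.25, 6.76 and 7.73 CPM against 13.6, 16.2 and 13.2 CPM and had a log2 change of -1.38 ± 0.33 in the 5 libraries.

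More growth genes were called when Male SNI replicate 2 was left out. Of the 25 effector genes, 18 were called higher and none lower in that fit, with a median log2 change of 1.07. The share of all tested genes called higher was 2.10% there and 0.488% with all 6 libraries. Gpr151, an orphan receptor of injured neurons, measured 25.5, 2.15 and 33.1 CPM after injury and 2.59, 4.73 and 7.49 CPM in sham. Male SNI replicate 2 was the lowest of the 6 libraries for this gene. Vgf, a secreted peptide precursor, measured 437, 213 and 606 CPM against 191, 192 and 184 CPM. Gfra1, a receptor for glial cell line-derived neurotrophic factor, measured 452, 186 and 524 CPM against 195, 221 and 232 CPM, so the library left out lay below every sham library. Adcyap1, which encodes the peptide PACAP, measured 98.1, 73.2 and 154 CPM against 45.0, 42.9 and 50.7 CPM, with every injured library above sham. Anxa1, an annexin, measured 10.1, 1.54 and 20.1 CPM against 2.44, 2.90 and 2.60 CPM. In Gpr151, Gfra1 and Anxa1 the level of Male SNI replicate 2 was below every sham library, while Atf3, Sprr1a, Npy and Gal stood far above sham in the same library.

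Several groups gave no call with either set of libraries. They included the 24 oxidative phosphorylation genes (median log2 change -0.04), the 24 ribosomal protein genes (0.25), the 17 interferon-stimulated genes, the 7 class II major histocompatibility genes (0.11) and the 6 tested cytokines of 15 listed. For 6 of the 24 ribosomal protein genes every injured library stood above sham, against 9.20% of all tested genes, at changes of 0.24 to 0.52 on the log2 scale. The 9 mitochondrially encoded genes of the lists were not analysed here, since none is named in the 6 tables. A missed threshold in these lists does not show that the levels were equal.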

How the data were processed

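Raw counts per gene symbol were deposited by the authors in a separate table for each library, as the column headers state. Per the submitters' processing notes, the build was mm10 and Bowtie2 and bedtools were used, without their versions or what each did. Nothing in the sources says whether strand was used, or how multiply mapped reads and duplicate molecules were handled. With no molecular identifiers stated, the floors cover counting error only. Each male table held 23282 rows and 23238 symbols, and rows with the same symbol were summed. Totals of 12476606 to 14737582 mean that 3 counts in 1 library are 0.204 to 0.240 CPM. The ribosomal row Rn45s took 6.14 to 10.7% of counts and was kept. No pair of replicates agreed within sampling noise (chi-square per gene of at least 8.63).

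Male SNI was compared with Male sham in these 6 libraries alone with edgeR 4.0.16 (limma 3.58.1, R 4.3.3). Genes were kept by filterByExpr with a minimum count of 10, and totals were scaled by TMM factors of 0.914 to 1.07. The two-sided quasi-likelihood F test was adjusted by Benjamini-Hochberg over all 14332 tested genes, and genes below 0.05 were called. Standard errors are the log2 change divided by the root of F. The common biological coefficient of variation was 0.305. The test was tried on simulated counts for 14332 genes without a deviating library, where 7% of calls were false. Principal components used log2 CPM with a prior count of 2. Alternatives were other scaling factors, DESeq2 1.42.0, limma voom with quality weights, no filter, no Rn45s, a replicate block and leaving out each library.

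The members, gene lists and naming rule were chosen with earlier results of these data known. The rule takes the 4 markers, the 12 called genes with the largest change in each direction at a mean of 5 CPM or more with no overlap, the top called and the most abundant member of each list, the 8 smallest adjusted p-values, 10 genes each way called only without Male SNI replicate 2 and 10 genes each way that set this library apart. Of the 10 increases called only without Male SNI replicate 2 that the rule picked, most were muscle genes. Positions and promoters came from RefSeq GRCm38.p6, with 13660 tested genes placed by symbol, 631 by synonym and 41 not at all. Exon overlaps, which affect 2337 tested genes, came from GENCODE vM21.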

Additional observations from a re-analysis of the deposited data

How the results depend on the processing

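All 71 genes called with 6 libraries kept their direction in each alternative run, but these runs reused the same counts. Since the groups did not overlap for any of the 71, leaving out 1 library could hardly reverse a direction. The kept direction is therefore no added support. The count of calls was 71 in the main test, 287 with DESeq2 (244 higher, 43 lower), 498 with limma voom and quality weights (335 higher, 163 lower) and 90 without the filter (88 higher, 2 lower), and each of these included all 71. The voom weights were 0.187 for Male SNI replicate 2 and 0.688 to 2.02 for the others. Size factors of the DESeq2 type called 71 genes and upper-quartile factors 66, with 0 lower in both, where Etv1 missed the threshold. Leaving out 1 library gave 7 to 481 calls, 7 to 307 higher and 0 to 174 lower, and the highest values all came from leaving out Male SNI replicate 2. The cause was not tested. With the replicate number as a block 30 genes were called, 30 higher and 0 lower, 28 of them among the 71. Same-numbered libraries did not deviate together (correlations -0.0596, -0.00532 and 0.0974), and not every library correlated best with its own number, so the numbers were not taken as pairs.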
